A study of Mus musculus with 12 samples.

Results

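Purine synthesis and salvage enzymes were followed through their transcripts in 4 mouse leukaemia cell lines. The genes asked for were Ppat, Gart, Pfas, Paics, Adsl, Atic, Impdh1, Impdh2, Hprt and Aprt, chosen by name, and every probe set whose platform annotation gave such a symbol alone was taken. A probe set is the group of short array probes that is summarised into 1 value. This gave 18 probe sets for 9 of the 10 genes, out of 45037 probe sets and 18193 genes measured, and Impdh2 was not analysed here.

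The lines are murine leukaemia lines derived from BXH-2 mice. B117P and B140P are the parental lines, which are sensitive to cytarabine (Ara-C), a cytidine analogue used against acute myeloid leukaemia. B117H and B140H are the highly Ara-C-resistant lines derived from B117P and from B140P. Each line was hybridised to 3 arrays, lettered A, B and C, which makes 12 arrays. For all 12 samples the labels give the same handling, namely exposure to rising amounts of Ara-C and passage in ASM medium with no Ara-C, so this text does not separate parental from resistant cells. Total RNA was prepared with an RNeasy Midi kit, and a MessageAmp III kit was used for amplification before biotin labelling. Each group is a single cell line, and the labels do not tell whether its arrays go back to separate cultures, so every p-value rests on the spread among these samples alone, which may be technical.

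Purine nucleotides are made along a pair of routes that both start from phosphoribosyl pyrophosphate (PRPP). In de novo synthesis the ring is assembled step by step by Ppat, Gart, Pfas, Paics, Adsl and Atic and ends in inosine monophosphate (IMP), which Impdh1 and Impdh2 turn towards guanine nucleotides. In salvage, Hprt joins hypoxanthine or guanine to PRPP and Aprt does the same with adenine. Dividing leukaemia cells draw on these routes for DNA synthesis, and thiopurine drugs given in leukaemia are activated by the salvage enzyme Hprt.

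Promoter windows are printed for 4 of the genes: Gart and Aprt, whose transcripts fell in B117H, and Ppat and Paics, which are next to each other on chromosome 5 on opposite strands. The windows come from RefSeq, build GRCm38.p6, run 5′ to 3′ along the gene and cover 250 bases before the annotated start and 50 after it. Capitals mark an E-box (CACGTG), the core of the NRF1 motif (GCGCATGC) or a CCAAT box (CCAAT), each searched on both strands.
Gart, chr16:91646923-91647222, minus strand: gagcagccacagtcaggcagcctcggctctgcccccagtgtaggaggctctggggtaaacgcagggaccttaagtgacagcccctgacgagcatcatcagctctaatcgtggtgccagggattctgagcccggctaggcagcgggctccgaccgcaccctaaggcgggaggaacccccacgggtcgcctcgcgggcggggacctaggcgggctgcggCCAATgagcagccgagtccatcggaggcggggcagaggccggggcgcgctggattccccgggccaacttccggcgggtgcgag
Aprt, chr8:122576858-122577157, minus strand: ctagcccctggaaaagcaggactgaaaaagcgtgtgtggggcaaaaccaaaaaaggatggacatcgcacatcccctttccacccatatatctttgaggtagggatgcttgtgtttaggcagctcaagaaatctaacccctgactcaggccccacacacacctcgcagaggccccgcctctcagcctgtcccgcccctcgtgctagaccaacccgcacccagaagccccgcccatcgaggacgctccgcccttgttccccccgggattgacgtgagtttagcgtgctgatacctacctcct
Ppat, chr5:76951529-76951828, minus strand: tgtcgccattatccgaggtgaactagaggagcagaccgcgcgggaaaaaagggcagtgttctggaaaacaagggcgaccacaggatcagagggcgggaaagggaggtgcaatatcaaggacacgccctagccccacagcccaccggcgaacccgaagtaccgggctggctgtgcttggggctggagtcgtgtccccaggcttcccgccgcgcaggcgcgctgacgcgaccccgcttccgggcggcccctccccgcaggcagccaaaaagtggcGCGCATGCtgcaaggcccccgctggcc
Paics, chr5:76951052-76951351, plus strand: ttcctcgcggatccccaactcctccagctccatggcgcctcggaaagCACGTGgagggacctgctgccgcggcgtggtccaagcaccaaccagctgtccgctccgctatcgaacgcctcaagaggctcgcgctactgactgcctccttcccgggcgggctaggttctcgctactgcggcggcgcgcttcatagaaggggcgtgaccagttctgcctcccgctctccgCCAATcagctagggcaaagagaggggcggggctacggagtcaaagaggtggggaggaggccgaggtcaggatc

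The promoter table held 10 windows for 9 of the genes, Impdh1 having a pair of them. E-boxes were present in the windows of Atic, Impdh2 and Paics, 3 of 10 windows, against 7.15% of all 32851 windows of the same length. The Paics E-box starts at position -203 from the annotated start, and the CCAAT boxes of Paics and Gart start at -23 and -33. The NRF1 core was found in Ppat alone, at position 23, and in 2.71% of all windows. CCAAT stood in Atic, Gart, Impdh2 and Paics, against 37.4% of all windows. The GC box GGGCGG, which is not capitalised in the sequences, was found in 10 of 10 windows and in 35.7% of all windows. None of the 4 motifs contains another. The Aprt window held GC boxes and none of the letters of the other motifs on either strand. A match of letters is a description of these windows only.

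The deposited values are intensities that are comparable between arrays within a probe set, and not between probe sets. Each was turned into log2(value + 1), and differences between lines were tested in 1 limma fit over all 12 arrays and all 45037 probe sets. A gene is called here when its adjusted p (Benjamini-Hochberg, over all probe sets) is under 0.05, and it is represented by its probe set with the highest mean. All 9 genes were bright. Their representative probe sets lay between the 85.5th percentile of mean log2 value over all probe sets, for Impdh1, and the 99.3rd, for Paics. Across the arrays, values ran from 7.65 to 36675 and array medians from 118 to 131, and the median residual SD was 0.154 log2 units. In whole cultures, fewer cells of a type and less RNA per cell cannot be told apart.

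In most pairs of lines, arrays of the same letter deviated together from their lines' means, and 2 of the 18 probe sets moved widely with the letter. For Atic 1452811_at, RMA intensity was highest on array A and lowest on array C in 4 of 4 lines: in B117P the values were 1638 (A), 971.5 (B) and 703 (C), and in B140H they were 1166 (A), 949.6 (B) and 507 (C). Its letter means spanned 1.25 log2 units, at the 99.7th percentile of all probe sets, whose median was 0.17. For Paics 1436298_x_at the span was 0.79, at the 98.2nd percentile, and array C was highest in 3 of the 4 lines. The brighter probe sets of these genes did not share the pattern, with spans of 0.05 for Atic 1428506_at, 0.06 for Paics 1423564_a_at and 0.09 for Paics 1423565_at. Results for Atic and Paics are therefore given from the bright probe sets. The labels do not say what the letters stand for, and calls that change once the letter enters the fit are given where the letters pair the arrays.

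**Figure D1:**
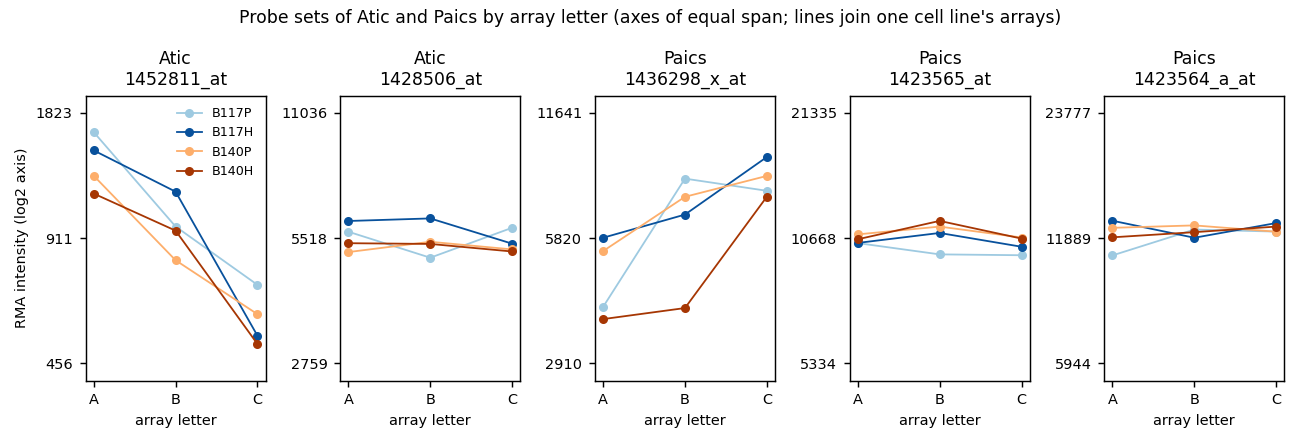
RMA intensity (log2 axis, each panel spanning the same factor) of the probe sets of Atic and Paics by array letter, with each cell line's 3 arrays joined. Atic 1452811_at falls from A to C in all 4 lines and Paics 1436298_x_at is highest on C in 3 of them, while the brighter probe sets are nearly level.

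In the B117 pair, 2 of the 9 genes were called, and both fell in the resistant line: Gart, which carries several catalytic steps of ring assembly in 1 protein, and Aprt, the adenine salvage enzyme. Over all genes, 9.41% were called in this comparison. The other 7 genes lay between -0.01 and 0.14 on the log2 scale, with adjusted p from 0.653 to 0.997 and 95% intervals that stayed between -0.27 and 0.38. The median change of the 9 genes was 0.09, against -0.01 over all genes, and their median size of change was 0.12, against 0.11. The arrays of B117H and B117P did not overlap for 2 of the 9 genes, the same Gart and Aprt, against 26.2% of all genes. Over probe sets, 3 of 18 fell and 0 rose, against 6.95% of all probe sets called.

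In the B140 pair none of the 9 genes was called in limma, where 6.56% of all genes were, and 0 of 18 probe sets were, against 4.65% of all probe sets. At an unadjusted p under 0.05 there was 1 gene, Aprt. The changes ran from -0.15 for Hprt to 0.28 for Aprt, with 95% intervals within -0.37 and 0.50 and adjusted p from 0.172 to 0.979. For 2 genes, Hprt and Aprt, no B140H array lay within the range of the B140P arrays, against 23.7% of all genes. The median change was 0.01, against 0.05 over all genes. With the letter as a block 0 of the 9 genes were called again, while the count over all genes went from 1194 to 1827.

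**Figure D2:**
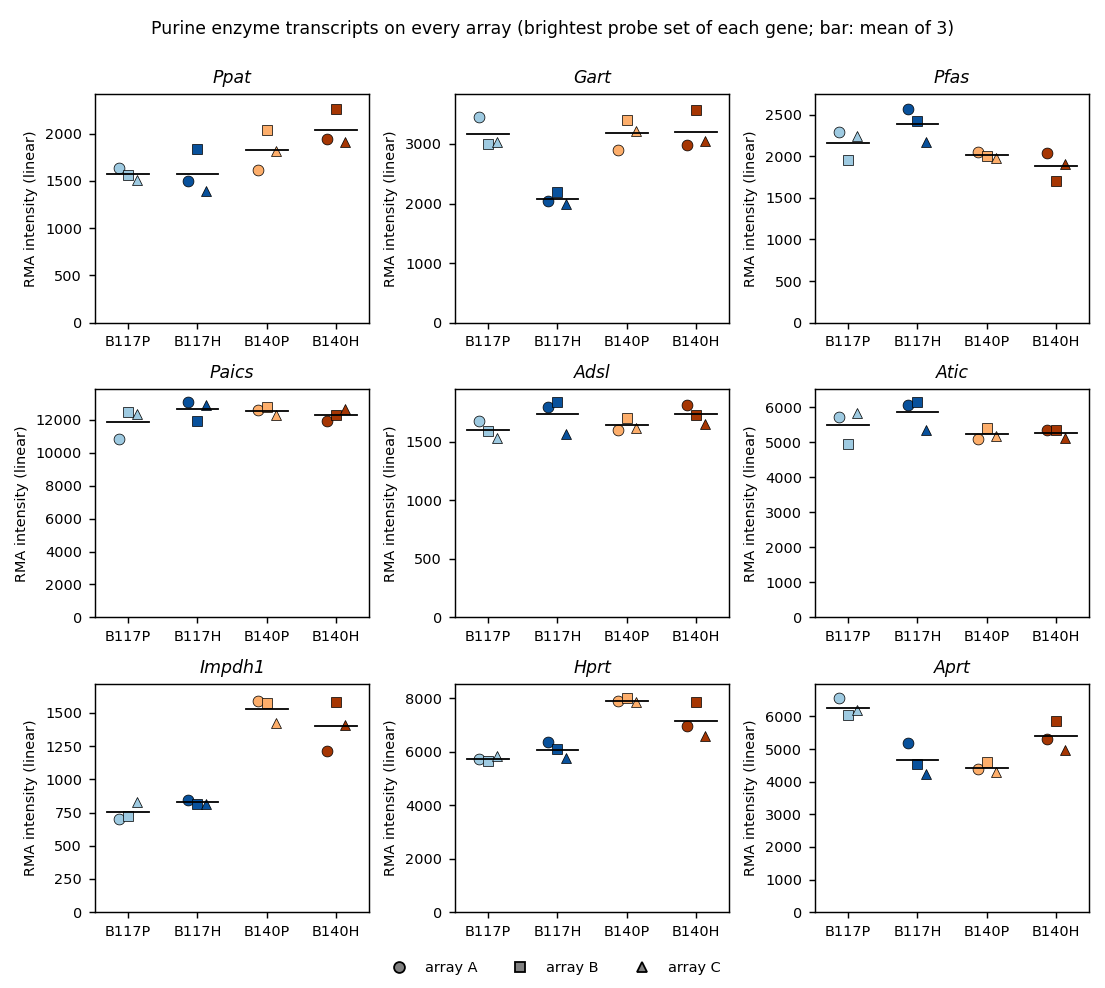
RMA intensity (linear axis from 0) of the representative probe set of each of the 9 genes in B117P, B117H, B140P and B140H. Points are single arrays, their shape gives the array letter, and bars are means of 3 arrays: Gart is low in B117H only, Impdh1 is high in both B140 lines, and Aprt is high in B117P.

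Ppat, the amidotransferase that commits PRPP to purine synthesis, gave RMA intensities of 1640.5, 1564.5 and 1512 in B117P (arrays A, B and C, as in all lists of values here) and 1503.5, 1834 and 1389.8 in B117H. In B140P they were 1614, 2039 and 1819, and in B140H 1947, 2258 and 1909. The arrays of each resistant line overlap those of its parent, while all 3 B140H arrays lie above all 3 B117H arrays. The change was -0.01 (SE 0.12) in the B117 pair and 0.16 (SE 0.12) in the B140 pair, and Ppat was called only in the comparison of the resistant lines. Its second probe set, 1428543_at, changed by -0.09 and -0.24 in the pairs, with adjusted p of 0.865 and 0.287, and had 3 non-overlapping arrays in the B140 pair. The third, 1441770_at, was dim at 25.4 to 41.2 and is at the 13.9th percentile of all probe sets.

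Gart gave 3456, 3005 and 3038 in B117P against 2047, 2201 and 1995 in B117H. In B140P the values were 2907, 3409.9 and 3215, and in B140H 2984, 3572.5 and 3058. All 3 B117H arrays lie below the 9 arrays of the other lines, which overlap each other. The means were 3166 ± 252 in B117P, 2081 ± 107 in B117H, 3177 ± 254 in B140P and 3205 ± 321 in B140H (SD, n = 3 each). Gart fell 1.52-fold in B117H, a log2 change of -0.60 (SE 0.10, 95% interval -0.83 to -0.38, limma adjusted p = 0.00278). In the B140 pair the change was 0.01 (SE 0.10, interval -0.21 to 0.24, adjusted p = 0.979). The difference of the changes was 0.61 (SE 0.15, adjusted p = 0.0213).

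All 4 probe sets of Gart were lower in B117H than in B117P. Besides 1416283_at, 1424436_at fell by 0.53 (adjusted p = 0.0171). The values of 1424435_a_at and 1441911_x_at were -0.39 (adjusted p = 0.272) and -0.51 (adjusted p = 0.0819), so neither was called. In the B140 pair the 4 probe sets ran from -0.12 to 0.01. Leaving out all A arrays or all C arrays, which leaves 2 arrays a line, ended the call in the B117 pair at adjusted p of 0.0507 and 0.1, with changes of -0.53 and -0.60. The call on the difference was lost without B117H A (0.0522), B117H C (0.0579) or B140P A (0.0607), with the mean of the gene's probe sets (0.0605), and without all arrays of letter A (0.169), B (0.0857) or C (0.201), while the difference stayed between 0.48 and 0.67.

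Pfas, the synthetase that follows the first Gart steps, had a single probe set. Its values were 2295, 1949.6 and 2241 in B117P, 2569, 2425 and 2174 in B117H, 2054, 2006 and 1972 in B140P, and 2035, 1698 and 1911 in B140H. The resistant arrays overlap the parental ones in both pairs, and the changes were 0.14 (SE 0.10, adjusted p = 0.653) and -0.10 (SE 0.10, adjusted p = 0.743). Pfas differed between the resistant lines only.

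Paics, Adsl and Atic act in the later steps, and none of them was called in any of the 6 comparisons. Paics, whose protein carries a carboxylase and a ligase, had the narrowest spread of the 9 genes: its line means lay within 0.09 log2 units of each other. Its intensities were 10801, 12462 and 12322 in B117P and 13086, 11909 and 12920 in B117H, which overlap, and from 11938 to 12752 over the 6 B140 arrays. The changes were 0.09 (SE 0.09, interval -0.10 to 0.28) and -0.03 (SE 0.09, interval -0.22 to 0.16). Adsl, the lyase that cleaves fumarate from intermediates of this route, ran from 1533 to 1843.5 over all 12 arrays, with changes of 0.12 and 0.08 (SE 0.09 each). Atic, which closes the ring to IMP, ran from 4949 to 6152, with changes of 0.09 and 0.01 (SE 0.09 each). These intervals leave room for changes of up to 0.31 in size for Adsl and 0.29 for Atic in the B117 pair.

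Impdh1, the IMP dehydrogenase that leads to guanine nucleotides, gave 699.97, 728 and 832 in B117P and 847, 816 and 817 in B117H. In B140P it gave 1593, 1578 and 1421, and in B140H 1212, 1584 and 1411. Every B140 array lies above every B117 array, and within each pair the arrays overlap. The changes with resistance were 0.14 (SE 0.11, adjusted p = 0.72) and -0.13 (SE 0.11, adjusted p = 0.668). The order of the lines by mean was B117P, B117H, B140H and B140P, and neighbours in this order within a lineage were not called apart.

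Hprt, the hypoxanthine and guanine salvage enzyme on chromosome X, gave 5712, 5644 and 5831 in B117P and 6344, 6093 and 5747.5 in B117H. In B140P it gave 7881, 8011 and 7842, and in B140H 6962, 7842 and 6583. The B140H arrays lie below the lowest B140P array, array B by less than 1 unit, and the B117 arrays overlap. The changes were 0.08 (SE 0.09, adjusted p = 0.856) and -0.15 (SE 0.09, interval -0.35 to 0.04, adjusted p = 0.483), neither of them called.

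Aprt gave 6551, 6049 and 6209 in B117P against 5192, 4535 and 4234 in B117H, and 4381, 4599 and 4303 in B140P against 5309.5, 5871 and 4983 in B140H. The arrays do not overlap in either pair, and the order is opposite: the resistant arrays are the lower ones in the B117 pair and the higher ones in the B140 pair. Aprt fell 1.35-fold in B117H, a log2 change of -0.43 (SE 0.10, interval -0.65 to -0.22, limma adjusted p = 0.017). In the B140 pair the change was 0.28 (SE 0.10, interval 0.07 to 0.50, adjusted p = 0.172), which was not called. The difference of the changes was 0.71 (SE 0.14, adjusted p = 0.00687). The second probe set, 1423801_a_at, had -0.30 (adjusted p = 0.407) and 0.36 (adjusted p = 0.298), with a difference of 0.66 (adjusted p = 0.101).

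The call on the fall of Aprt in B117H was lost with the mean of its probe sets, at an adjusted p of 0.099. It was also lost without B117P A (0.0599), B117P C (0.0542), B117H B (0.0679) or B117H C (0.0903), and without all arrays of letter A (0.0701), B (0.132) or C (0.293). The change stayed between -0.52 and -0.37 under every setting. The call on the difference was lost without all B arrays (0.103) or all C arrays (0.119). The representative probe set, 1451703_s_at, carries the suffix that the manufacturer gives to probes shared by several transcripts. That of Ppat, 1452831_s_at, carries the same suffix.

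**Figure D3:**
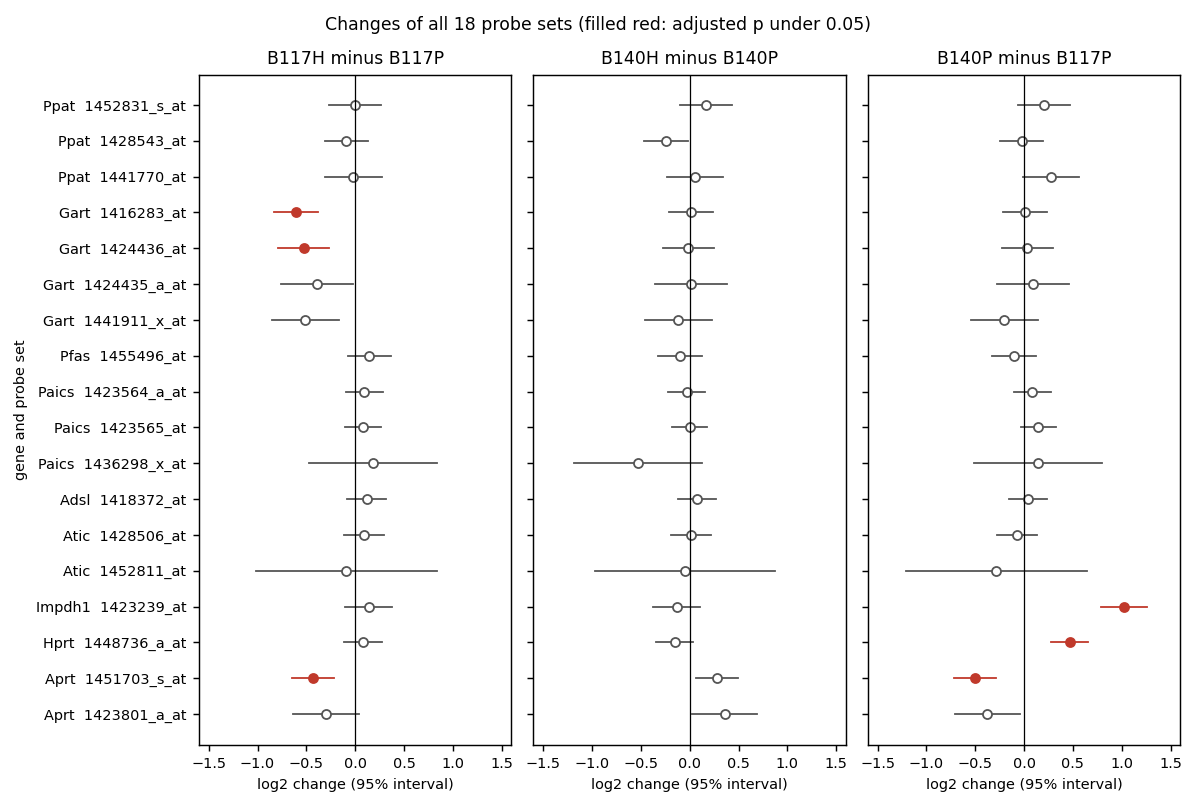
Log2 changes with 95% intervals (horizontal axes) for all 18 probe sets, by gene in pathway order, in the B117 pair, the B140 pair and between the parental lines. Filled red points have an adjusted p under 0.05: 3 probe sets of Gart and Aprt in the B117 pair, 0 in the B140 pair, and 1 each of Impdh1, Hprt and Aprt between the parents.

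Over both pairs together, the average change was called for 1 of the 9 genes, Gart, which fell by 0.30 (SE 0.07, adjusted p = 0.0327), against 7.86% of all genes. It was the 1 probe set called of 18, against 5.47% of all probe sets. That average joins a fall in the B117 pair and a change near 0 in the B140 pair. It was lost without B117P A (0.0681), B117P C (0.0568), B117H A (0.0775), B117H C (0.0853), B140H A (0.078), B140H C (0.0699), B140P B (0.0998) or B140P C (0.0809), and without all arrays of any letter (0.201, 0.0925 and 0.382). The difference between the changes of the pairs was called for 2 genes, Gart and Aprt, against 10.4% of all genes, and for 2 of 18 probe sets, against 7.58%. The other 7 genes had differences from -0.27 for Impdh1 to 0.17 for Ppat, with adjusted p from 0.375 to 0.929.

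Between the parental lines, 3 of the 9 genes were called, against 23.8% of all genes, and the share of probe sets was 3 of 18, against 18% of all. Impdh1 was 2.03-fold higher in B140P, a log2 difference of 1.02 (SE 0.11, interval 0.79 to 1.26, limma adjusted p = 1.64e-05). The means were 753 ± 69.6 in B117P and 1531 ± 95.4 in B140P (SD, n = 3 each). Hprt was 1.38-fold higher in B140P (log2 0.47, SE 0.09, adjusted p = 0.00183), at 5729 ± 94.5 against 7911.5 ± 88.7. Aprt was 1.42-fold lower there (log2 -0.50, SE 0.10, adjusted p = 0.00257), at 6269.6 ± 256 against 4428 ± 153. The same 3 genes had non-overlapping arrays, against 38.6% of all genes. These 3 calls were kept under each of the 24 alternative settings. The other 6 genes lay between -0.10 and 0.21, and Gart was at 0.00 (interval -0.22 to 0.23).

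Between the resistant lines, 4 of the 9 genes were called, against 27% of all genes, and 5 of 18 probe sets, against 20.7%. Gart was higher in B140H than in B117H by 0.62 (SE 0.10, adjusted p = 0.000659) and Impdh1 by 0.75 (SE 0.11, adjusted p = 0.000212), and these 2 calls were kept under all 24 settings. Ppat was higher by 0.38 (SE 0.12, adjusted p = 0.0455) and Pfas lower, at -0.35 (SE 0.10, adjusted p = 0.0297). The other bright probe set of Ppat, 1428543_at, lay the other way, at -0.18 (adjusted p = 0.287), and averaging its probe sets gave 0.18 (adjusted p = 0.245). Both genes lost the call when only the arrays of these lines were fitted, at adjusted p of 0.108 for Ppat and 0.0927 for Pfas. Aprt, which differed between the parents, was at 0.21 (interval -0.0021 to 0.43, adjusted p = 0.17) and Hprt at 0.23 (adjusted p = 0.0886). The arrays did not overlap for 5 of the 9 genes, these 4 and Hprt, against 38.9% of all genes.

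The weaker of these calls moved with single libraries and with the settings. Ppat lost its call without B117P A (0.052), B117P B (0.0612), B117P C (0.0601), B117H A (0.132), B117H C (0.185), B140P C (0.0638), B140H A (0.0672) or B140H B (0.146), without all A (0.158) or all C arrays (0.251), after centring on array medians (0.0672) and when its probe sets were averaged. Pfas lost it without B117H A (0.121), B117H B (0.0888) or B140H B (0.0934), and without all A (0.108), B (0.234) or C arrays (0.0975). Hprt gained a call under 5 settings: without B140H C (0.0494), with a pseudocount of 16 (0.0484), among brighter probe sets alone (0.0423), after a repeated quantile normalization (0.0401) and with an intensity trend and robust prior (0.0357). With the letter as a block, Ppat 1441770_at (0.0413), Gart 1424435_a_at (0.0191) and Paics 1436298_x_at (0.021) were also called, the last 2 of these 3 with changes of 0.49 and -0.57.

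Over the 36 pairs of the 9 genes, Pearson's r across the 12 arrays, which share lines and letters, ran from -0.676 to 0.944 with a median of -0.0432. The highest was that of Impdh1 and Hprt, both higher in the B140 lines. Gart and Aprt had an r of 0.436, and the adjacent genes Paics and Ppat one of -0.157.

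For the 3 genes with the widest range of line means, the 5 genes of most similar profile were taken among 10780 genes at or above the median brightness. The measure of likeness is Pearson's r over 12 arrays and is a description. For Impdh1 they were St14 (0.986), Atp2c1 (0.977), Sucla2 (0.977), Rnaseh2b (0.974) and Zmat3 (0.974), which differed between the parental lines by 1.20 to 5.35 log2 units. For Gart they were Gusb (0.971), Cdkal1 (0.97), Cops4 (0.97), Txndc5 (0.969) and Lyar (0.967), with changes from -1.27 to -0.84 in the B117 pair. For Aprt they were Selenos (0.966), Csnk2a2 (0.964), Hmgn1 (0.956), Cep20 (0.953) and Gsr (0.952).

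The genes beside Gart on chromosome 16 had negative changes in the B117 pair too. Of the 10 nearest measured genes, 5 on each side, 10 had a change below 0, with a median of -0.38, against -0.12 over chromosome 16 and -0.01 over all genes. Only Tmem50b was called, falling by 1.04 (adjusted p = 9.84e-05), and the direct neighbours Dnajc28 and Son were at -0.39 (adjusted p = 0.1) and -0.41 (adjusted p = 0.0555). On chromosome 16 as a whole, 71.7% of genes were below 0 in the B117 pair, against 51.5% of all genes, and 20.9% were called lower. With 10 genes on each side, an alternative chosen after seeing the data, 4 of 20 fell, a share near that of the chromosome, and the median was -0.33.

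In the B140 pair, where 6.56% of all genes were called, 3 of the 10 rose, namely Tmem50b (0.57), Donson (0.48) and Cryzl1 (0.64). Their median was 0.14, against 0.08 over chromosome 16, while Gart was at 0.01. Between the parents 8 of the 10 were called lower in B140P, with a median of -0.64, while Gart was at 0.00. Over chromosome 16, 25.1% of genes were called lower in B140P and the median was -0.10. Of all genes, 23.8% were called in either direction. Beside Aprt on chromosome 8, 0 of 10 genes were called in the B117 pair, against 9.41% of all genes, and the median was -0.01. In the B140 pair 2 of these rose, Galns (0.49, adjusted p = 0.0252) and Trappc2l (0.64, adjusted p = 0.00193), with a median of 0.17 against 0.08 over chromosome 8. None of the 10 genes nearest to Ppat or to Paics was called in either pair, although chromosome 5 also holds Dck, the deoxycytidine kinase that activates Ara-C, which fell by 7.96 in B117H and fell by 3.04 in B140H. There were 54 measured genes between Dck and Ppat and 53 between Dck and Paics.

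**Figure D4:**
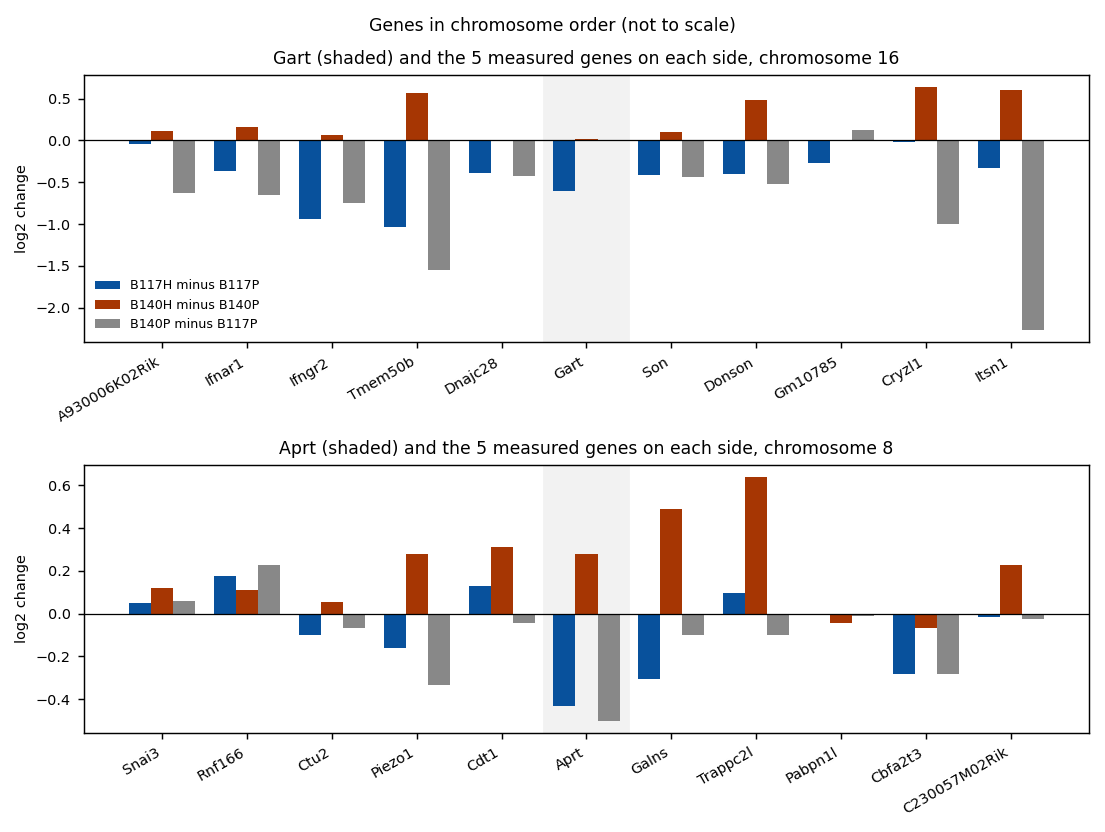
Log2 changes (vertical axes) of Gart and Aprt and of the 5 measured genes on each side, in chromosome order and not to scale. Blue bars are the B117 pair, brown the B140 pair and grey the parental lines: around Gart the blue bars all lie below 0, and the grey bars do so for 9 of the 10 neighbours but not for Gart.

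Other genes of purine metabolism were taken from 4 lists of 39 symbols, of which 31 were measured. In the B117 pair 3 rose and 2 fell, against 9.41% of all genes called, and in the B140 pair 1 rose and 2 fell, against 6.56%. The lists, by median change in the B117 and B140 pairs, were PRPP supply (6 genes, 0.12 and -0.09), the AMP and GMP branch (3 genes, 0.30 and 0.00), purine kinases (8 genes, 0.02 and 0.05) and breakdown and interconversion (14 genes, -0.04 and 0.02), beside -0.01 and 0.05 over all genes. None of the 31 was called in both pairs. No detection calls were used, so for dim probe sets it is not known whether the low values lie above background. Differences that rest on such values have no exact size. Dim here were Ak8 in every line, and most so in the B117 lines, Xdh and Ak1 in the B140 lines, Gda in all lines but B117P, and Ak3 and Ampd3 in the B117 lines.

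In PRPP supply, Prps1l3 rose in B117H: its intensities were 1192, 1455 and 1641 in B117P and 2023, 2349 and 1996 in B117H, a change of 0.58 (adjusted p = 0.0246). It is by its name a close copy of the PRPP synthetase gene Prps1, so the probes may not tell them apart, and its second probe set was at 0.24 (adjusted p = 0.269). Prps1 itself was not called in either pair. Among the kinases, Ak1, an adenylate kinase, rose by 0.54 in B117H (adjusted p = 0.00356), from 299, 276 and 290.45 to 462, 393 and 408, while its second probe set was at 0.03. Ak8, another adenylate kinase, fell by 0.58 in B140H (adjusted p = 0.0282), from 106, 81.9 and 95.4 to 62.2, 59.6 and 66.3. The call on Prps1l3 was lost without B117P A (0.0972), B117P B (0.0623), B117H A (0.053), B117H B (0.111) or B117H C (0.0526). That on Ak8 was lost without B140P A (0.133), B140P C (0.0952), B140H A (0.0773) or B140H B (0.0882), and that on Ak1 when its probe sets were averaged (0.141).

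In breakdown and interconversion, Gda, the guanine deaminase, fell by 0.61 in B117H (adjusted p = 0.000814), from 206, 248 and 229 to 142, 152 and 150.45. Its other probe sets gave -0.92 (adjusted p = 0.002) and -0.46 (adjusted p = 0.0966). Mtap, which releases adenine from methylthioadenosine and so supplies the substrate of Aprt, fell by 0.38 (adjusted p = 0.0286), and its 3 other probe sets ran from -0.37 to -0.26 with none called. Lacc1, a purine nucleoside enzyme of myeloid cells, rose by 0.69 (adjusted p = 0.0105), and its call was lost without B117H C (0.0567). That on Mtap was lost without B117P B (0.12), B117P C (0.0737), B117H A (0.0829), B117H B (0.0671) or B117H C (0.112), and when its probe sets were averaged (0.145).

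In B140H, Xdh, which oxidises hypoxanthine and xanthine to uric acid, rose. Its intensities were 83.9, 65.3 and 65.3 in B140P and 201, 152 and 144 in B140H, a fitted difference of 1.20 (SE 0.19, adjusted p = 0.00203) whose size rests on those dim B140P values. In the B117 pair Xdh was at 0.44 (adjusted p = 0.248), from 383, 526 and 531 to 547, 597 and 820: the B117H arrays are all above the B117P arrays, and the difference of the changes was not called (0.76, adjusted p = 0.118). Ampd2, an AMP deaminase, fell by 0.58 in B140H (adjusted p = 0.039), and its second probe set fell by 0.37 (adjusted p = 0.0414). The call on the first was lost without B117P C (0.0544), B117H A (0.0563), B117H B (0.0537), B140H A (0.143), B140H B (0.123), B140P A (0.0933), B140P B (0.122) or B140P C (0.136). Averaged over both pairs, where 7.86% of all genes were called, Xdh rose by 0.82, Ak1 by 0.38, Adss, the adenylosuccinate synthetase ahead of Adsl on the way to AMP, by 0.32 and Prpsap1, a PRPP synthetase-associated protein, by 0.21, while Mtap fell by 0.31 and Gda fell by 0.26. The average of Gda joins a change of -0.61 in the B117 pair and 1 of 0.10 in the B140 pair, and the difference of these changes was called. Leaving out single arrays ended the calls on the averages of Adss for 8 of the 12 arrays (adjusted p up to 0.0759), of Prpsap1 for 11 (up to 0.101), of Gda for 9 (up to 0.0865) and of Mtap for B140P B (0.0535). Averaging the probe sets also ended those of Mtap (-0.25, adjusted p = 0.109) and Ak1 (0.23, adjusted p = 0.0942), and centring arrays on their medians that of Prpsap1 (0.073).

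Between the parents 3 of these genes were higher and 8 lower in B140P, against 23.8% of all genes called. Ak3, a mitochondrial GTP:AMP kinase, was higher (adjusted p = 2.11e-11), at 63.6, 61.0 and 61.6 in B117P against 2565, 2842 and 2493 in B140P. Ampd3, another AMP deaminase, was higher too (adjusted p = 4.89e-07), at 58.5, 75.2 and 57.3 against 406, 434 and 516. Lower were Xdh, with the values above, and Pnp, the purine nucleoside phosphorylase, at -0.70. Nt5c2, a nucleotidase that acts on IMP, was lower by its brightest probe set at -1.40 and with its probe sets averaged at -0.88. Between the resistant lines 4 were higher and 8 lower in B140H, against 27% of all genes. Ak3 was at 78.3, 98.9 and 68.2 in B117H against 2942, 2369 and 2896 in B140H, and Pnp was lower, at -1.06.

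**Figure D5:**
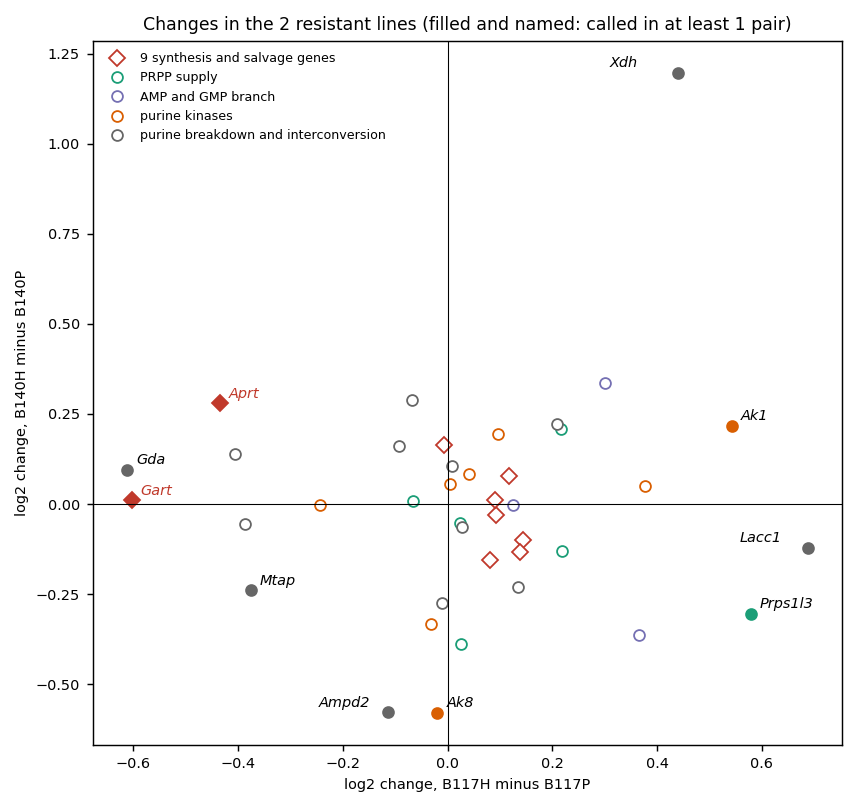
Log2 change in the B117 pair (horizontal axis) against that in the B140 pair (vertical axis) for the 9 synthesis and salvage genes (diamonds) and 31 other purine genes (circles, coloured by list). Filled, named points were called in at least 1 pair; Gart and Aprt lie to the left of 0, and Xdh, whose B140P values are dim, is drawn at 1.20 on the vertical axis.

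The cultures' identity was read from marker lists. The summed intensity of 11 myeloid markers ran from 79012 to 89959 in B117P, 64270 to 67580 in B117H, 30250 to 30806 in B140P and 26616 to 27298 in B140H. Such sums rest mostly on the brightest probe sets, which in B117P were those of Mpo, Ctsg, Prtn3 and Ptprc, with means from 11618 to 25315. Between the parents 9 of 11 were lower in B140P, while 5 of 8 B lymphoid markers were higher, against 23.8% of all genes called. Cd34 was at 5360 to 8469 in B117P and 33.1 to 49.4 in B140P, and Kit at 1052 to 1151 and 25.9 to 44.1. Mpo, the myeloperoxidase of myeloid granules, was at 23066 to 27884 and 648 to 844. Rag1 was at 15.5 to 20.5 in B117P and 1119 to 1257 in B140P, and Cd79b at 95.7 to 112 and 1498 to 2095. These move with the parental differences of Impdh1, Hprt and Aprt, and their part in them was not tested. In the B117 pair, where 9.41% of all genes were called, 4 of 11 myeloid markers fell, beside the falls of Gart and Aprt. The calls held 0 rises, although the means of Ptprc, Kit, Cd34 and Itgam were higher in B117H than in B117P. Of the 8 B lymphoid ones 2 rose, Vpreb1 and Blnk, and 1 fell. The summed B lymphoid intensity went from 1009 to 1472 in B117P to 4228 to 5716 in B117H, and was 6105 to 8583 in B140P and 5730 to 7388 in B140H. Vpreb1 made up most of the rise in B117H, with means of 666 in B117P, 4385 in B117H and 3202 in B140P. Means of Cd79a, Cd79b, Ebf1 and Rag1 were 70.3, 64.2, 42.8 and 27.6 in B117H, against 308, 1855, 809 and 1168 in B140P. For Blnk they were 307 in B117H and 129 in B140P. The sums of the T lymphoid, erythroid and stromal lists lay between 506 and 1195 in all lines. Within this range the stromal sum was higher in B117H, at 840 to 1195, than in B117P, at 623 to 792. Of its 7 markers 1 rose there, Fn1 (1.02, limma adjusted p = 0.0211), against 9.41% of all genes called. Of 8 monocyte markers 1 rose and 2 fell in B117H, against the same 9.41% of all genes called. Their sums were 9765 to 11177 in B117P, 6371 to 7593 in B117H, 2658 to 4542 in B140P and 3769 to 4900 in B140H.

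Markers of dividing cells did not fall with Gart. Of 13 measured, 3 rose in B117H (Mcm3, Tyms and Rrm2) and 1 in B140H (Mcm7), against 9.41% and 6.56% of all genes called. In either pair 0 of the 13 fell, and their medians were 0.21 in both. Their summed intensity was 85978 to 90430 in B117P, 95496 to 102957 in B117H, 87962 to 93968 in B140P and 104449 to 110611 in B140H. All arrays of each resistant line thus lie above those of its parent on this sum.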

How the data were processed

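Total RNA of 12 samples, 3 for each of 4 cell lines, was measured on 1-colour arrays. The authors deposited probe-set intensity values, for which the submitters' processing notes name RMA, a method that corrects background, normalizes by quantiles and summarises probes. Its version, its settings and a genome build were not given in the sources used here. RMA compresses differences among dim probe sets. The values are on a linear scale, as read from the values themselves. Of 45101 probe sets 64 array controls were left out. The platform annotation gave 1 symbol to 34945 of the 45037 tested, several to 932 and none to 9160. No detection calls were used.

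Values were taken as log2(value + 1), and folds are on this scale with its pseudocount of 1. The fit was limma 3.58.1 (lmFit, contrasts.fit, eBayes) in R 4.3.3 with 1 coefficient per line, two-sided, with 8 residual and 4.65 prior degrees of freedom, and Benjamini-Hochberg adjustment over all probe sets. The number of arrays limits the precision. The 6 comparisons were each resistant line against its parent, the average and the difference of these changes, the parents, and the resistant lines. The script was tested on simulated data.

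Same-letter deviations from the line means were correlated over all probe sets: r was 0.587, 0.36 and 0.56 (A, B, C) between B140P and B140H, 0.455, 0.349 and 0.532 between B117H and B140H, and 0.499, 0.131 and 0.414 between the parents. By a minimum of 0.1 in every letter, the letters pair these arrays. The main fit holds no letter term.

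Named were all members, the 5 genes most like the 3 members of widest range, neighbours on the chromosome and Dck. The other purine genes called in at least 1 comparison were described as well, except Guk1 and Nt5e. These were called only between the lineages, as were Ak3, Ampd3, Pnp and Nt5c2, which are described. Neighbours come from the order in the RefSeq table (GRCm38.p6). The members, lists and tests were chosen with earlier results of these data known. Alternatives concerned the pseudocount, a brightness filter, normalization, the letter, the samples in the fit, the prior, the choice of probe set and leaving out arrays.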

Additional observations from a re-analysis of the deposited data

Results flagged for a closer look

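The change with resistance differed between the lineages, by the interaction term of the limma fit, for 2 of the 9 synthesis and salvage enzymes and 4 of the 31 other purine genes, against 10.4% of all genes. The value given is the change in the B140 pair minus that in the B117 pair, on the log2 scale. Among the synthesis and salvage enzymes it was 0.61 for Gart (adjusted p = 0.0213) and 0.71 for Aprt (adjusted p = 0.00687); Gart was not called without B117H A (0.0522), B117H C (0.0579) or B140P A (0.0607). Among the other purine genes it was -0.88 for Prps1l3 (adjusted p = 0.0157), with 0.58 in the B117 pair and -0.30 in the B140 pair. It was -0.73 for Adssl1, an adenylosuccinate synthetase (adjusted p = 0.0212), with 0.37 and -0.36, neither of which was called on its own, and its call was lost without B117P B (0.0542), B117H A (0.0574) or B140P A (0.0503). It was 0.71 for Gda (adjusted p = 0.00374), with -0.61 and 0.10, and -0.81 for Lacc1 (adjusted p = 0.0291), with 0.69 and -0.12. The call on Lacc1 was lost without B117P A (0.0659), B117P C (0.0649), B117H A (0.0594), B117H C (0.0794), B140P A (0.0526), B140P C (0.0801), B140H A (0.0565) or B140H B (0.0664). Groups of 3 arrays were not searched for outlying arrays.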

How the results depend on the processing

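Of the 12 calls on the 9 genes over 6 comparisons, 5 held under all alternative settings run (up to 24): Impdh1, Hprt and Aprt between the parents, and Gart and Impdh1 between the resistant lines. No called change reversed; among 1278 recomputed values 50 lost and 5 gained a call, and 53 uncalled values changed sign. When the probe sets of each gene were averaged, the count of called genes was 1 in the B117 pair (Gart) and 1 for the difference of the changes (Aprt), in place of 2 each. With only the arrays of the 2 lines, 2 genes were called between the resistant lines in place of 4; that setting does not apply to the average and the difference. Leaving out arrays gave 0 to 2 called genes in the B117 pair, 0 to 1 for the average, 0 to 2 for the difference and 2 to 5 between the resistant lines. The cause of the losses was not tested, beyond the smaller number of arrays. With the letter as a replicate block, the counts of called members were the same (2, 0, 1, 2, 3 and 4, in the order of the comparisons), and over all genes they went from 1712 to 2381 in the B117 pair, 1194 to 1827 in the B140 pair, 1430 to 2104, 1896 to 2739, 4333 to 5139 and 4911 to 5846. Between B117P and B117H the letters missed the minimum of 0.1 through letter B alone. The same-letter correlations were 0.555, 0.0278 and 0.392 for A, B and C, and 5 of 6 arrays correlated best with their own letter. Under that block 5 further probe-set results were called there and in the average and difference: Gart 1441911_x_at in the B117 pair (0.0133) and the average (0.0331), Gart 1424436_at in the average (0.0248) and the difference (0.0252), and Aprt 1423801_a_at in the difference (0.0321). Beside these and the probe sets given with the resistant lines, it changed no call of the 18 probe sets. For the other purine genes, 19 of 41 calls held under all settings and 139 of 971 recomputed values lost the call.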
